A study of Mus musculus with 8 samples.

Results

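The genes described here encode the machinery that docks, primes and fuses synaptic vesicles. Their RNA was measured in the right hippocampus of wild-type and Cav3.2 knockout mice. Separate mice of each genotype were either naïve or given trace fear conditioning. The genes are described together as 1 set. They were chosen by name. A gene belonged if its symbol in the probe annotation began with Syt, Stx, Vamp, Cplx, Sv2, Rab3, Rims, Unc13, Syngr or Snap2, or was Syn1, Syn2, Syn3, Syp, Nsf, Napa or Napb, and if at least 1 of its probes carried values. The rule itself used no expression value, apart from taking the probe of highest mean over the 8 arrays where a gene had several. It was set, however, with earlier results of these data known. The rule gave 73 genes on 82 probes, out of 11011 genes and 16383 probes with values. Another 19 genes matched by name but had only empty probes, among them Cplx3, Syt7, Sv2c and Unc13c. The prefix Rab3 also took 8 Rab proteins that are not Rab3 family members (Rab31, Rab32, Rab33a, Rab33b, Rab34, Rab35, Rab36 and Rab39b), and the prefix Stx took the syntaxin-binding proteins and the syntaxins of internal membranes.

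Total RNA was hybridized to one-colour mouse oligonucleotide arrays (Phalanx OneArray), 2 arrays for each of 4 groups of male mice aged 6 to 8 weeks on the C57BL/6 background. WNR was the naïve wild type, WTR the wild type given trace fear conditioning (a tone, an empty interval and then a foot shock) followed by a context test, KNR the naïve Cav3.2 knockout and KTR the conditioned knockout. All animals of the knockout line lacked Cacna1h, the gene of the T-type calcium channel Cav3.2, in every tissue and not only in the hippocampus, and the tissue of 3 mice was pooled per group. Whether duplicate arrays received RNA of separate pools is left unsaid by the labels, so p-values below measure the spread of arrays, possibly a technical one, and carry no estimate of how mice vary. In whole hippocampus, fewer cells of a type and less RNA per cell cannot be told apart.

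Release begins when vesicle SNARE proteins (the Vamp family) pair with the SNAREs of the plasma membrane (Snap25 and the syntaxins) into a bundle that pulls both membranes together. Unc13 and RIM proteins prepare docked vesicles at the active zone, Rab3 GTPases bring vesicles there, complexins hold the assembled bundle, and synaptotagmins such as Syt1 sense calcium and trigger fusion. Nsf and the SNAP adaptors Napa and Napb then take the bundle apart, while SV2 proteins, synaptophysin, synaptogyrins and synapsins are membrane or surface proteins of the vesicle itself. In hippocampal neurons this machinery sets how much transmitter an action potential releases, and T-type channels such as Cav3.2 admit calcium at voltages near rest.

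Intensity is given as deposited, on a linear scale after quantile normalization. Its level differs between probes for reasons of sequence, so no probe is set against another. Differences between groups are on the log2 scale with values under 100 raised to 100. They come from 1 limma model of all 8 arrays, followed by their standard error (SE), and a gene was called where the p-value adjusted by Benjamini-Hochberg over all 16204 probes tested was under 0.05. Cacna1h itself read 2575 and 2385 on the WNR arrays, 2084 and 2340 in WTR, 1551 and 1489 in KNR and 1036 and 1440 in KTR. Every knockout array thus lay below every wild-type array, with residual signal, by 0.71 (adjusted p = 0.049) in naïve and 0.85 (adjusted p = 0.053) in conditioned mice on the log2 scale. Whether this probe targets sequence inside the deletion is not given in the sources used here, so it is a limited check of the labels. Markers of excitatory and inhibitory neurons, dentate gyrus, CA1, CA2 and CA3 and of glia were detected in all groups. KNR array 1 and KTR array 2 departed most from the average of the 8 arrays over the 73 genes, with mean squared log2 deviations of 0.0865 and 0.109 against 0.0281 to 0.0674 on the other 6. Without both, KNR and KTR held a single array each, so calls of such a fit cannot be set against those of all 8 arrays.

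All 73 genes passed the filter on low values. In all, 20 were called in at least 1 of the 4 comparisons or in the test of the difference between training differences, and 53 in none. The 20 are 27.4% of the 73, and 24.4% of all 10920 genes tested were called at least in 1 of these. Between the 2 arrays of a group, the members differed by a median of 0.12 to 0.15 on the log2 scale. The largest such gaps were 0.83 for Syn3 in KTR, 0.81 for Rims3 in KNR, 0.71 for Syt3 in WNR and 0.69 for Stx16 in WTR.

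**Figure D1:**
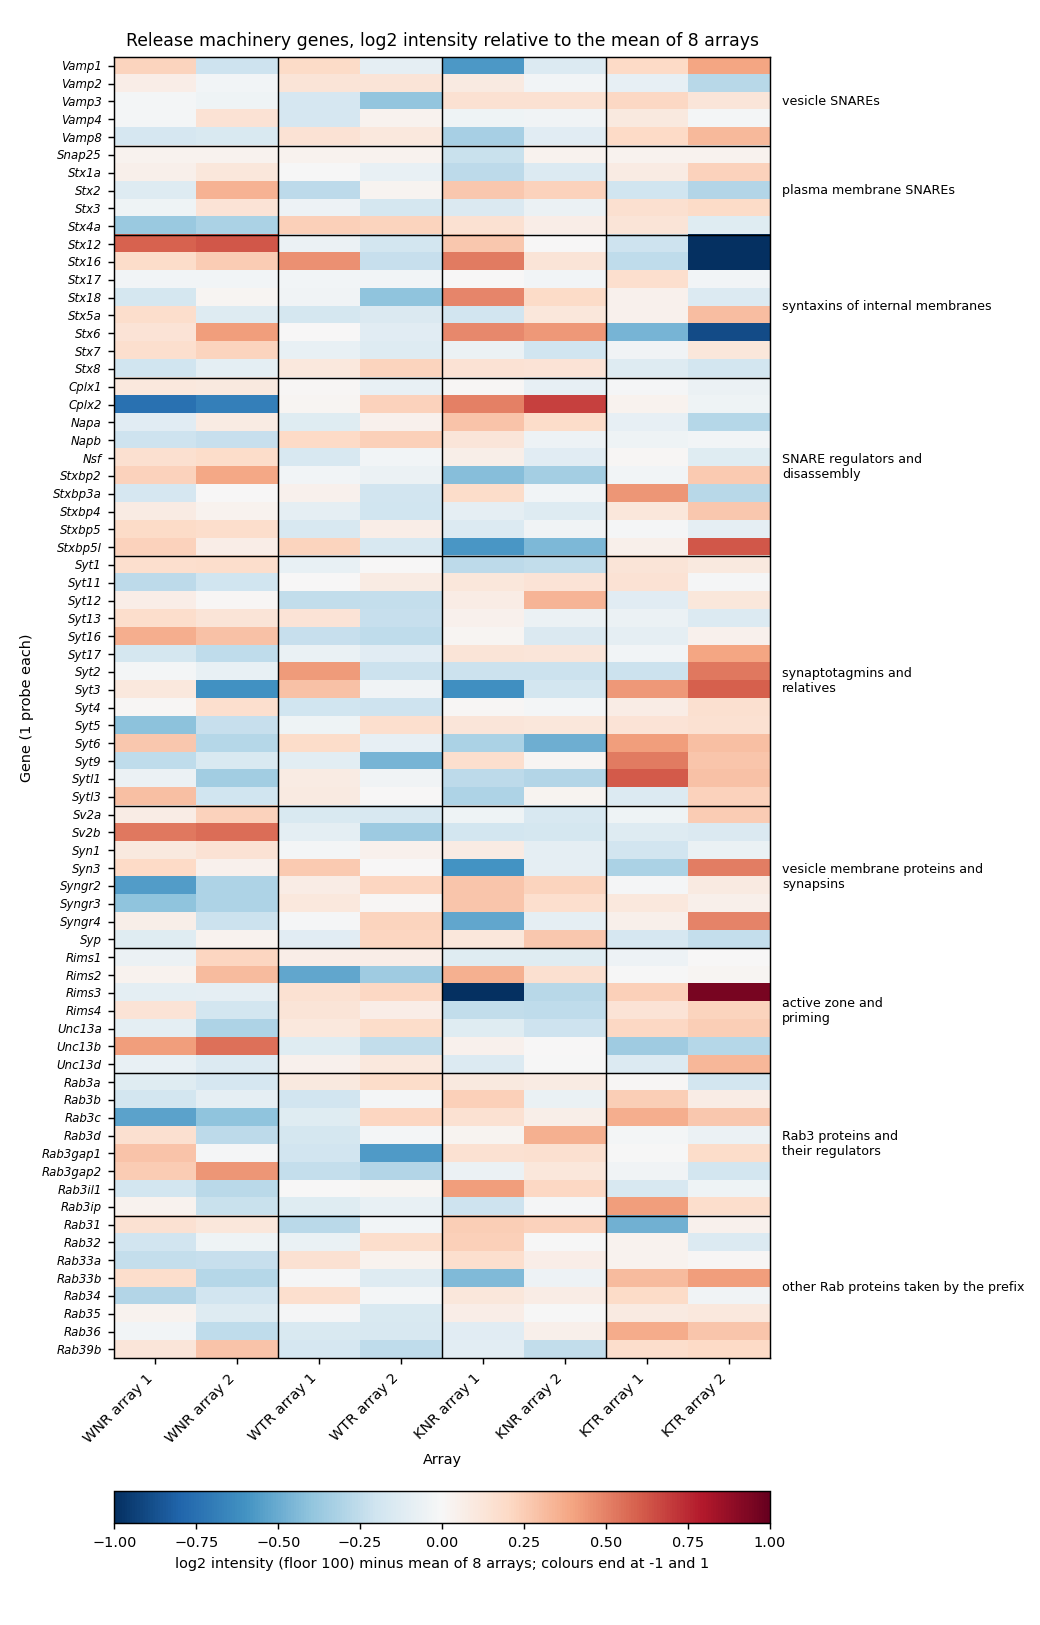
The log2 intensity of each of the 73 genes (rows, by role) on each of the 8 arrays (columns), minus that gene's mean over the arrays, with values under 100 raised to 100 and colours ending at -1 and 1. Cplx2 and Syngr2 are low and Sv2b and Unc13b high on both WNR arrays, and Rims3 is low on KNR array 1 and high on KTR array 2.

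Naïve knockout and naïve wild type were compared first, which sets the genotypes against each other without training. Of the 73 genes, 9 were called (12.3%), 5 higher and 4 lower in KNR. Of all 10920 genes tested 8.08% were called, 4.4% higher and 3.68% lower. The median difference over the 73 was -0.02, against 0 over all genes. The share called was thus close to the background, and the set as a whole did not shift. The called genes were the complexin Cplx2, the synaptogyrins Syngr2 and Syngr3, Rab3c and its family's exchange factor Rab3il1 among the higher, and Sv2b, Stxbp2, Unc13b and Syt1 among the lower.

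Cplx2, one of the complexins that bind the assembled SNARE bundle, had the largest difference of the 73. It read 897 and 933 in WNR and 2135 and 2409 in KNR, with WTR at 1523 and 1762 and KTR at 1540 and 1456. WNR lay below and KNR above all other arrays, and the WTR and KTR ranges overlapped. KNR exceeded WNR 2.48-fold (log2 difference 1.31 ± 0.12 SE, adjusted p = 0.013). Cplx1, the other complexin with values, stayed between 19842 and 22555 on the 8 arrays, with a log2 difference of -0.14 in KNR (adjusted p = 0.39).

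The vesicle glycoprotein gene Sv2b ran the other way. Its WNR arrays read 31875 and 32555 and all 6 other arrays lay between 17139 and 20638, so that only WNR stood apart. KNR was lower than WNR by a log2 difference of -0.73 ± 0.11 (SE, adjusted p = 0.025), a 1.65-fold change. Sv2a, the widely expressed member of the same family, gave -0.25 (adjusted p = 0.24).

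Both synaptogyrins called in naïve mice were higher in the knockout. Syngr2, which is known from many tissues besides brain, read 196 and 233 in WNR, 305 and 335 in WTR, 350 and 337 in KNR and 287 and 307 in KTR. Syngr3, a synaptogyrin of brain vesicles, read 2929 and 3127 in WNR, 4169 and 3898 in WTR, 4684 and 4356 in KNR and 4164 and 4016 in KTR. In both genes WNR was lowest and KNR highest without overlap. The differences between KNR and WNR were 0.69 ± 0.12 (SE, adjusted p = 0.029) for Syngr2 and 0.58 ± 0.10 (SE, adjusted p = 0.028) for Syngr3. A second probe of Syngr2, read at 89 to 152 on the 8 arrays and thus near the floor, gave 0.26 (adjusted p = 0.41). Syngr3 lies on chromosome 17, as Cacna1h does. The part of DNA linked to the targeted gene in the Syngr3 difference was not tested.

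Syt1, the calcium sensor of fast release, read 42697 and 43008 in WNR, 36171 and 38184 in WTR, 31742 and 32032 in KNR and 41520 and 40548 in KTR. KNR was the lowest group and WNR the highest, with no overlap between any of the 4. The knockout difference in naïve mice was -0.43 ± 0.09 (SE, adjusted p = 0.041), and the gene's second probe gave -0.35 (adjusted p = 0.076). Stxbp2, a partner of syntaxins best known from secretion in blood and epithelial cells, read 1887 and 2098 in WNR, 1571 and 1542 in WTR, 1197 and 1265 in KNR and 1574 and 1921 in KTR. KNR was again lowest, by -0.69 ± 0.13 (SE, adjusted p = 0.03).

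Unc13b, a priming factor, read 1783 and 1951 in WNR, 1223 and 1122 in WTR, 1372 and 1335 in KNR and 1042 and 1093 in KTR. WNR lay above every other array, and KNR was lower by -0.46 ± 0.10 (SE, adjusted p = 0.044). Rab3c, a vesicle GTPase, read 825 and 903 in WNR and 1325 and 1245 in KNR, a difference of 0.57 ± 0.14 (SE) whose adjusted p was just under the threshold at 0.05 after rounding. Rab3il1 read 106 and 97 in WNR and 161 and 139 in KNR, close to the floor of 100, with a difference of 0.54 ± 0.11 (SE, adjusted p = 0.038). Its WTR arrays read 121 and 122 and its KTR arrays 108 and 117.

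**Figure D2:**
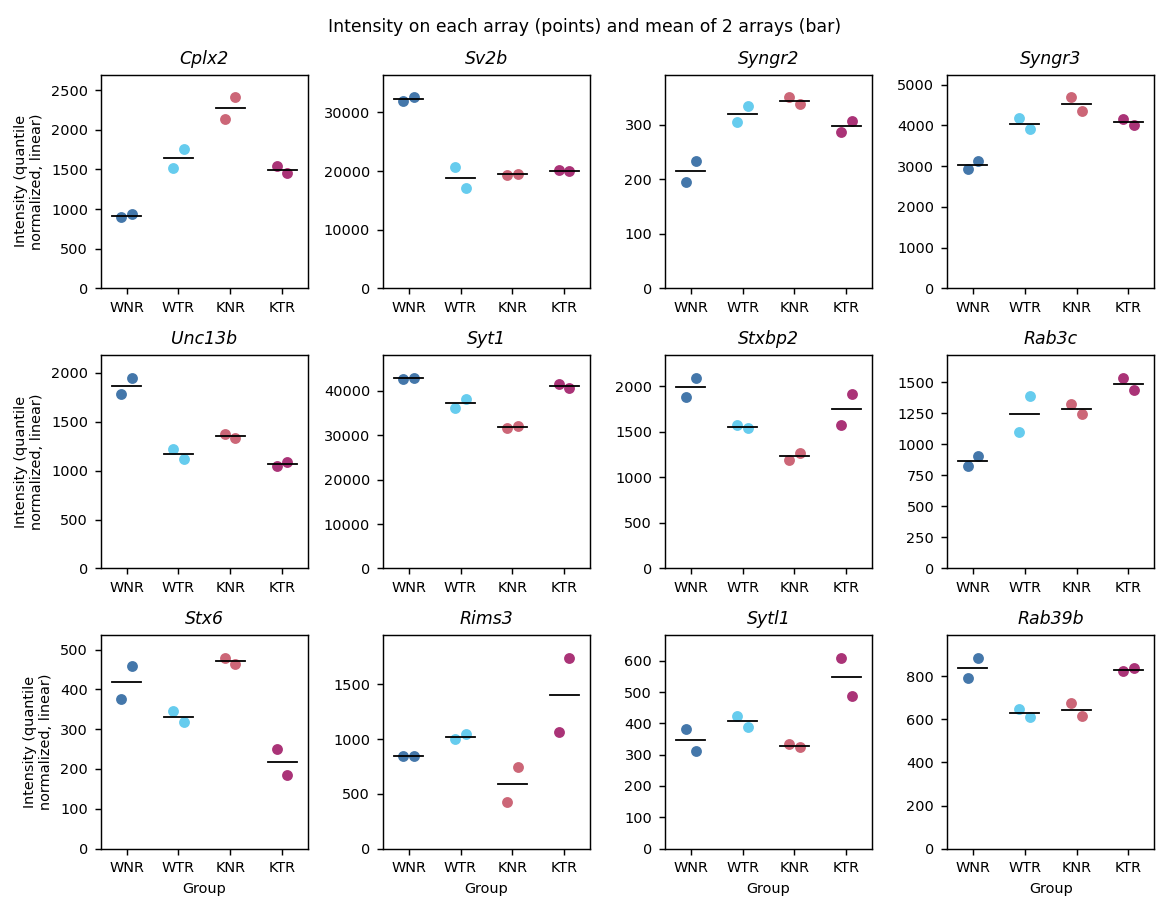
Intensity (linear, quantile normalized) of 12 called genes on each array (points) in the 4 groups, with the mean of 2 arrays (bar). Cplx2 rises from 897 and 933 in WNR to 2135 and 2409 in KNR, Sv2b is high only in WNR, and Stx6 is lowest in KTR.

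With an array left out its group held a single array, and calls over all probes fell as well as those of the members. Leaving out either WNR or either KNR array left 0 of the 9, leaving out either WTR array left 2 (Cplx2 and Sv2b), and leaving out either KTR array left 5 (these and Stxbp2, Syngr2 and Syngr3). A limma fit of WNR and KNR alone also gave 0, over all probes too, while every sign held. SAM at the study's thresholds gave 0 as well, but of the 9 genes only Cplx2 exceeded its fold change of 2. Summed marker levels of inhibitory neurons were lowest in WNR, at 34525 to 34702 against 39184 to 44816 elsewhere over the 5 of 6 markers with values, all above 100 on every array. Most of that sum was Sst. Pvalb was also lowest in WNR, at 4403 and 3672 against 4813 to 6394, and Vip at 116 and 111 against 132 to 217. Slc32a1 overlapped with other groups, and Gad2 ran the other way, at 2604 and 2976 in WNR against 1559 to 2152. Summed astrocyte markers were highest in WNR, at 54128 to 54881 against 42259 to 50720 over 6 of 7, mostly through Gja1 and Slc1a3, whereas S100b was lowest there at 3980 and 3563 against 5218 to 6370. Summed CA2 and CA3 markers were lowest in WNR, at 16563 to 18177 against 21906 to 26760 over 5 of 6. That was mostly through Pcp4, at 8777 and 10005 in WNR, and the other CA2 and CA3 markers overlapped with other groups. Among dentate gyrus markers Prox1 was highest in WNR, at 571 and 564 against 159 to 405. Calb1 was too, at 944 and 991 against 433 to 783, while C1ql2 and Dsp overlapped with other groups. In each of these lists some markers thus differed in WNR while others overlapped or ran the other way. Their part in the WNR differences was not tested.

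Training in wild-type mice was then considered by comparing WTR with WNR. Here 8 of the 73 genes were called (11%), 3 higher and 5 lower. Of all genes tested 6.67% were called, 3.35% higher and 3.32% lower, and the median over the 73 was -0.01 as over all genes. Cplx2, Syngr2 and the plasma membrane syntaxin Stx4a were higher. Sv2b, Unc13b, Rab3gap2, Rims2 and Syt16 were lower. The comparison shares its WNR arrays with that of KNR and WNR, so the genes called in both cannot be counted as separate evidence.

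Cplx2 was 1.79-fold higher in WTR than in WNR (log2 difference 0.84 ± 0.12 SE, adjusted p = 0.028) and Syngr2 1.5-fold (0.58 ± 0.12 SE, adjusted p = 0.041). Sv2b fell by 0.78 ± 0.11 (SE, adjusted p = 0.028) and Unc13b by 0.67 ± 0.10 (SE, adjusted p = 0.029) on the same scale. In the naïve knockout the same 4 genes had differed from WNR by 1.31, 0.69, -0.73 and -0.46, in that order.

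Cplx2, Syngr2, Sv2b and Unc13b are shown with the 250 bases before their transcription start, since both comparisons with WNR turn on them, the first pair being lower and the second pair higher in WNR. Sequences are from RefSeq on GRCm38.p6, 5′ to 3′ on the strand of the gene, with capitals for letters of 4 motifs found on either strand. The GC box was searched as GGGCGG and the TATA box as TATAAA. The E box was searched as CACGTG and the cyclic AMP response element as TGACGTCA. They lie at chr13:54302306-54302555 on the plus strand for Cplx2, chr11:117809417-117809666 on the plus strand for Syngr2, chr7:75309263-75309512 on the minus strand for Sv2b and chr4:43058703-43058952 on the plus strand for Unc13b. Sv2b has 4 listed starts, of which the most upstream is shown.
Cplx2: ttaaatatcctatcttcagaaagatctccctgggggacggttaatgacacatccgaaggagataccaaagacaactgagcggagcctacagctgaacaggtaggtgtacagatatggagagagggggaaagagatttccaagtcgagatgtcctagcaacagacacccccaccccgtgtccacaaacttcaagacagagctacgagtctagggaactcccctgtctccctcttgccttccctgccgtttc
Syngr2: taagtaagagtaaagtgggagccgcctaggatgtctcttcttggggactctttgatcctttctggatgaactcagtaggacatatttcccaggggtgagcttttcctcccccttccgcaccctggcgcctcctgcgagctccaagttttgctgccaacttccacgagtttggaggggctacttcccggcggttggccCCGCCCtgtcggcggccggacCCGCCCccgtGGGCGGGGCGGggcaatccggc
Sv2b: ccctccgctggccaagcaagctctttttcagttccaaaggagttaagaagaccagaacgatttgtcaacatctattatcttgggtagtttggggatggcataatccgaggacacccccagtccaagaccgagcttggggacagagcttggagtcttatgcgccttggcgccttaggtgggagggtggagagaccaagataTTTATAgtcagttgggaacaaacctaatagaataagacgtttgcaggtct
Unc13b: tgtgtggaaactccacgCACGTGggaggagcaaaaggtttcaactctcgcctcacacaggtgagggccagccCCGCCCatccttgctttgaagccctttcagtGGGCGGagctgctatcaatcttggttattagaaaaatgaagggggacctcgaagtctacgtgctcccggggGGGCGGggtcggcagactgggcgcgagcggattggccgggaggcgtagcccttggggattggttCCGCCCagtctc
The Cplx2 window held none of these motifs and the Sv2b window a single TATA box. Syngr2 and Unc13b held 4 GC boxes each, partly overlapping in Syngr2, and Unc13b also 1 E box. Over the 75 windows of the 57 members that matched, 61.3% held a GC box against 32.7% of all 32851 windows of the same length, 16% an E box against 6.02%, 8% a TATA box against 12.4% and 1.33% a cyclic AMP response element against 1.55%. The windows of all genes were not limited to genes with values on these arrays, as those of the members were. The shares are thus of unlike sets, and the gaps between them were not tested. These are matches of letters, and the 4 genes had no motif of the 4 in common.

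Stx4a, which mediates fusion at the plasma membrane outside the active zone as well, read 743 and 776 in WNR, 1135 and 1124 in WTR, 1068 and 1011 in KNR and 1056 and 885 in KTR. WNR was the lowest group, and the training difference was 0.57 ± 0.11 (SE, adjusted p = 0.038). Syt16, a synaptotagmin relative, read 10753 and 10240 in WNR and 7134 and 6988 in WTR (-0.57 ± 0.11 SE, adjusted p = 0.034). Its KNR arrays read 8439 and 7554 and its KTR arrays 7840 and 8597, between those of the 2 wild-type groups.

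The active zone scaffold Rims2 read 1069 and 1305 in WNR, 728 and 817 in WTR, 1338 and 1167 in KNR and 1041 and 1059 in KTR. WTR lay below all other arrays, with a difference from WNR of -0.61 ± 0.14 (SE, adjusted p = 0.047). Rab3gap2, a subunit of the complex that switches Rab3 off, read 1212 and 1379 in WNR and 858 and 826 in WTR, a difference of -0.62 ± 0.12 (SE, adjusted p = 0.036). Its partner subunit Rab3gap1 read 5483 and 4452 in WNR and 3932 and 3032 in WTR, which gave -0.52 and was not called (adjusted p = 0.1). WTR was the lowest group for both subunits.

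No call of this comparison held when any single array of the 8 was left out. Such fits leave a single array in a group, and calls over all probes fell as well. The limma fit of WTR and WNR alone called 0, over all probes too, and every sign held. SAM also called 0, but no member reached its fold change of 2 (Cplx2, the largest, 1.79-fold). Beside the marker levels in WNR given above, those of choroid plexus were highest in WTR. They summed to 29048 to 36068 against 18010 to 25213 in the other groups, over 6 of 7 markers, 5 of them above 100 on every array. Most of that sum was Ttr, but Folr1, Kl, Enpp2 and Otx2, like Ttr, were higher on both WTR arrays than on every other array. Folr1 read 203 and 229 in WTR against 74 to 161 elsewhere, and Otx2 209 and 248 against 135 to 184. Clic6 overlapped between the groups, at 804 and 974 in WTR and 913 and 889 in WNR. The CA2 and CA3 sum was also highest in WTR, at 26028 to 26760 against 16563 to 23006. Pcp4 made most of that gap, and the other CA2 and CA3 markers overlapped between WTR and WNR. Their part in these differences was not tested.

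Training in the knockout, KTR against KNR, gave the largest number of calls among the 73 genes. There were 10 (13.7%), 7 higher and 3 lower in KTR, where 15.4% of all genes tested were called and more of them lower (9.07%) than higher (6.35%). The share was therefore not above the background, and the median over the 73 was 0.04 against -0.01. The higher genes were Rims3, Stxbp5l, Syt6, Sytl1, Stxbp2, Vamp8 and Syt1, and the lower ones Stx6, Cplx2 and Rab3il1.

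Rims3, a short relative of the RIM scaffolds, read 426 and 746 in KNR and 1066 and 1745 in KTR, with WNR at 842 and 849 and WTR at 1001 and 1043. KNR was the lowest and KTR the highest group without overlap, but both arrays of each stood far apart. KTR exceeded KNR 2.42-fold (1.28 ± 0.30 SE, adjusted p = 0.038), and without KNR array 1 and KTR array 2 the log2 difference was 0.52. Stx6, a syntaxin of the Golgi and endosomes, read 377 and 458 in WNR, 345 and 317 in WTR, 479 and 463 in KNR and 249 and 185 in KTR. KTR was lowest and KNR highest, with a difference of -1.13 ± 0.17 (SE, adjusted p = 0.02). A second Stx6 probe, at 328 and 243 in KNR and 246 and 159 in KTR, gave -0.51 (adjusted p = 0.16).

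Stxbp5l and Syt6 also rose with training in the knockout. Stxbp5l, a tomosyn that competes for syntaxin, read 412 and 452 in KNR and 639 and 946 in KTR (0.85 ± 0.21 SE, adjusted p = 0.041), the wild-type arrays lying between 553 and 724. Syt6, a synaptotagmin also known from sperm, read 157 and 140 in KNR and 262 and 241 in KTR (0.76 ± 0.19 SE, adjusted p = 0.043). The KTR arrays of Syt6 were above all other arrays and the KNR arrays below them.

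Sytl1, a synaptotagmin-like protein that binds Rab27, read 333 and 325 in KNR and 610 and 488 in KTR, the highest of the 8 arrays, with a difference of 0.73 ± 0.15 (SE, adjusted p = 0.029). Vamp8, a vesicle SNARE best known from endosomes and secretory granules, read 1621 and 1639 in WNR, 2015 and 1962 in WTR, 1445 and 1682 in KNR and 2091 and 2288 in KTR. KTR was highest, and exceeded KNR by 0.49 ± 0.11 (SE, adjusted p = 0.035). Syt1 and Stxbp2, both lowest in KNR, were higher in KTR by 0.36 ± 0.09 (SE, adjusted p = 0.042) and 0.50 ± 0.13 (SE, adjusted p = 0.042). The second Syt1 probe was called here too, at 0.52 (adjusted p = 0.027). So was a second probe of the syntaxin Stx8, at -0.95 (adjusted p = 0.019), while the Stx8 probe of higher mean gave -0.30 (adjusted p = 0.079).

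Cplx2 was lower in KTR than in KNR by a log2 difference of -0.60 ± 0.12 (SE, adjusted p = 0.027), and Rab3il1 by -0.42 ± 0.11 (SE, adjusted p = 0.048). Thus Cplx2, Rab3il1, Syt1 and Stxbp2 were called with opposite signs in KNR against WNR and in KTR against KNR. Both comparisons contain the KNR arrays and are not separate evidence. Syt3, with the second largest positive difference (0.92), was not called (adjusted p = 0.053), its arrays reading 442 and 595 in KNR and 915 and 1026 in KTR. Stx16, with the second largest negative one (-0.98, adjusted p = 0.073), read 225 on KTR array 1 and 129 on array 2.

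The count of 10 became 6 without either WNR array and 5 without KTR array 1, of which 4 were among the 10. It became 3 without either WTR array or without KNR array 2, and 0 without KNR array 1 or without KTR array 2, in each case with all 10 signs kept. Each of these fits leaves a single array in a group, and calls over all probes fell as well. SAM called Stx6 alone, but of the 10 genes only Rims3 and Stx6 exceeded its fold change of 2. A limma fit of KNR and KTR alone called 0, over all probes too. CA1 markers summed to 3550 to 4296 in KTR against 5389 to 6376 in the other groups, over 4 of 4 markers, all above 100 on every array, and the CA1 gene Spink8, the marker that differed most, read 948 and 807 in KTR and 2310 and 1948 in KNR. Oligodendrocyte markers summed to 55595 to 61874 in KTR against 69393 to 77107 elsewhere, over 6 of 7, mostly through Mbp and Cldn11. Mag was higher in KTR than in KNR, at 4050 and 3916 against 3262 and 3635, and of the CA1 markers Man1a was too, at 990 and 928 against 896 and 771. The dentate gyrus markers Prox1 and Calb1 were lowest in KTR, at 201 and 159 and at 433 and 468, whereas C1ql2 and Dsp were not. Their part in the KTR differences was not tested.

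**Figure D3:**
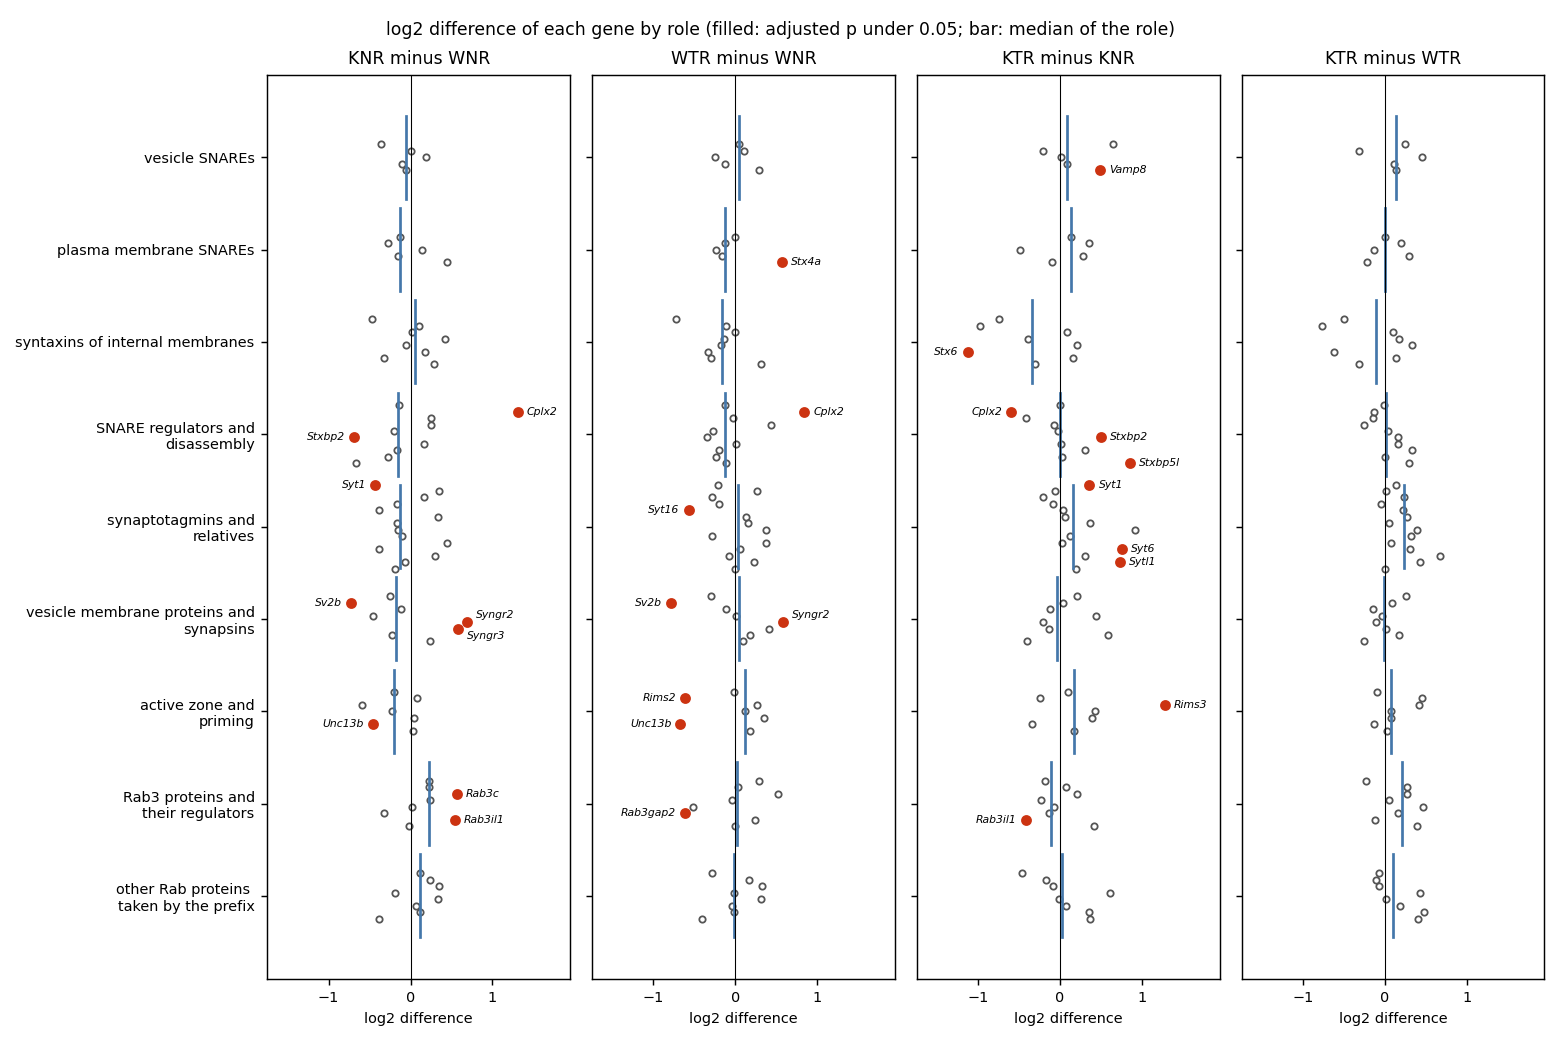
Log2 difference of each of the 73 genes (points) by role in the 4 comparisons, filled and named where the adjusted p was under 0.05, with the median of each role (bar). Cplx2 reaches 1.31 in KNR minus WNR, Stx6 reaches -1.13 in KTR minus KNR, and no point is filled in KTR minus WTR.

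After training, knockout and wild type were compared as KTR against WTR. None of the 73 genes was called by limma, where 1.97% of all genes tested were, although 16 had an unadjusted p under 0.05 (11 higher and 5 lower in KTR). The pairwise limma fit also called 0. So did SAM, but no member reached its fold change of 2 (Stx16, the largest, 1.71-fold). Of the 73, 48 were higher in KTR and 25 lower, and their median was 0.09 against 0.01 over all genes. The shares of all genes with an unadjusted p under 0.05, or with a higher value in KTR, were not taken. The counts of 16 and 48 are thus not set against a background. The members of largest difference were Syt9, a calcium sensor, at 0.68 (adjusted p = 0.069) and Rab36 at 0.48 (adjusted p = 0.081) among the positive values, and Stx16 at -0.77 (adjusted p = 0.2) and Stx6 at -0.62 (adjusted p = 0.092) among the negative. The second Stx6 probe gave 0.18 (adjusted p = 0.69), and the mean over both probes -0.22. For Cplx2 the difference was -0.13 ± 0.12 (SE, adjusted p = 0.56) and for Sv2b 0.09 ± 0.11 (SE, adjusted p = 0.67). A second probe of Stx8, an endosomal syntaxin, was called at -1.08 (adjusted p = 0.026), with 992 and 886 in WTR and 494 and 397 in KTR, while the Stx8 probe of higher mean gave -0.32 (adjusted p = 0.12).

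Whether training acted differently in the genotypes was tested as the KTR minus KNR difference less the WTR minus WNR difference. It was called for 5 of the 73 genes (6.85%), with 3 values above and 2 below 0. Of all genes tested 5.16% were called, 1.99% above and 3.17% below 0. Cplx2 gave -1.44 ± 0.17 (SE, adjusted p = 0.032), with a training difference of 0.84 in wild type and -0.60 in the knockout. Syngr2 gave -0.79 ± 0.17 (SE, adjusted p = 0.048), from 0.58 in wild type and -0.21 in the knockout. Sv2b gave 0.82 ± 0.16 (SE, adjusted p = 0.041), from -0.78 and 0.04. On their second probes Stx8 at -1.32 (adjusted p = 0.032) and Syt1 at 0.74 (adjusted p = 0.041) were called as well. Their probes of higher mean gave -0.61 (adjusted p = 0.054) and 0.57 (adjusted p = 0.053).

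Stxbp2 gave 0.85 ± 0.18 (SE, adjusted p = 0.045), from -0.35 in wild type and 0.50 in the knockout. Rab39b, a neuronal GTPase whose human counterpart is linked to X-linked intellectual disability, gave 0.78 ± 0.15 (SE, adjusted p = 0.041). It was called in none of the 4 comparisons. It read 792 and 887 in WNR, 650 and 610 in WTR, 676 and 614 in KNR and 824 and 838 in KTR, so that WTR and KNR were low and WNR and KTR high. Rims3 and Stxbp5l had larger positive values, 1 (adjusted p = 0.17) and 0.96 (adjusted p = 0.093), and were not called, nor was Stx16 at -0.87 (adjusted p = 0.24). Only the Cplx2 value remained called when an array was left out, and only without KTR array 1 (range of the adjusted p over single arrays left out 0.048 to 0.13). A fit without an array leaves a single array in its group, and calls over all probes fell as well.

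By role, calls were found in every group of genes, and most members of each were called in no comparison. Of all genes tested 24.4% were called at least once, so calls in every role are no result about the roles. The roles were not tested as sets. Among the 5 vesicle SNAREs only Vamp8 was called, in KTR against KNR. Vamp2, the main vesicle SNARE of the synapse, stayed between 9826 and 13009 and was lowest in KTR (log2 difference from WTR -0.31, adjusted p = 0.16). Vamp1, its relative, read 808 and 1098 in KNR and 1382 and 1583 in KTR (0.65, adjusted p = 0.072).

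Among the 5 plasma membrane SNAREs only Stx4a was called. The main Snap25 probe read about 65480 on 7 arrays and 54840 on KNR array 1, the upper end of the scanner's range, and so bounds the level from below and gives no usable difference. A second Snap25 probe read 293 to 725 over the 8 arrays. Stx1a, the syntaxin of the active zone, read 8450 and 8835 in WNR, 8164 and 7741 in WTR, 6809 and 7451 in KNR and 8634 and 9610 in KTR. It was lowest in KNR, yet neither the difference from WNR (-0.28, adjusted p = 0.14) nor that from KTR (0.35, adjusted p = 0.063) was called.

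Of the disassembly proteins, Nsf, the ATPase that separates used SNARE bundles, read 29167 and 29708 in WNR and 23387 to 27129 on the other 6 arrays. WNR was highest, with differences of -0.27 in WTR (adjusted p = 0.19) and -0.20 in KNR (adjusted p = 0.28). Its adaptor Napb read 9709 and 9566 in WNR and 12873 and 13259 in WTR (0.44, adjusted p = 0.051), and a second Napb probe had the opposite sign in all 5 comparisons, -0.20 in this one. Napa gave -0.42 between KTR and KNR (adjusted p = 0.063). None of these 3 genes was called in any comparison.

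Of the 14 synaptotagmins and relatives, Syt1, Syt6, Syt16 and Sytl1 were called. Syt5, a vesicle synaptotagmin, read 1072 and 1215 in WNR and 1384 to 1603 on the other arrays, with 0.44 in KNR (adjusted p = 0.06) and 0.38 in WTR (adjusted p = 0.091). Syt2, the fast sensor of hindbrain synapses, was near the floor at 72 to 167, and Syt12 read 201 to 301. In KTR against WTR the median over the 14 was 0.23, with a range from -0.05 to 0.68, and none was called.

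Of the 8 vesicle membrane proteins and synapsins, Sv2b, Syngr2 and Syngr3 were called. Synaptophysin (Syp), a protein abundant on all synaptic vesicles, read 3455 and 3832 in WNR, 3471 and 4345 in WTR, 4064 and 4530 in KNR and 3340 and 3177 in KTR. KTR was lowest, by -0.40 from KNR (adjusted p = 0.087). Syn1, the main synapsin, stayed between 8972 and 11273 and its largest absolute difference was -0.14 (adjusted p = 0.5). Syn3 read 102 to 220.

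Of the 7 active zone and priming genes, Unc13b, Rims2 and Rims3 were called. Rims1, the central RIM scaffold, stayed between 7355 and 9261, and its difference in KNR was -0.20 (adjusted p = 0.31). Rims4, another short RIM, read 780 and 776 in KNR and 1019 and 1079 in KTR, which gave 0.43 (adjusted p = 0.059). Unc13a, the main priming factor of hippocampal glutamate synapses, read 100 to 147, close to the floor of 100. Its difference between KTR and KNR was 0.39 (adjusted p = 0.054).

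Among the 8 Rab3 proteins and regulators, Rab3c, Rab3il1 and Rab3gap2 were called. Rab3a, the main brain Rab3, read 19366 and 18837 in WNR, 22594 and 23990 in WTR, 22555 and 22398 in KNR and 21255 and 18560 in KTR. WTR was highest, with 0.29 from WNR (adjusted p = 0.14). Rab3b read 182 to 246 and Rab3d 310 to 474, with absolute differences of at most 0.27 and 0.24. Of the 8 other Rab proteins Rab39b alone was called, and only in the difference between training differences.

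The groups also differed in how often they stood apart, over all genes tested as well as over the 73. Both WNR arrays lay outside the range of the other 6 for 23 of the 73 genes (31.5%), against 25.8% of all genes tested, and both KTR arrays for 20 (27.4%, against 27%). For KNR there were 16 (21.9%, against 18.8%) and for WTR 11 (15.1%, against 11.2%). Of the 23 in WNR, 11 lay above the other arrays (15.1% of the members, against 13.3% of all genes), among them Sv2b, Unc13b, Syt1 and Nsf. The other 12 lay below (16.4%, against 12.6%), among them Cplx2, Syngr3, Rab3c and Syt5.

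Of the 9 genes with a second probe, Snap25 was set aside because its main probe was saturated. Of the other 8, 5 had the same sign on both probes in each genotype comparison, and 6 in each training comparison and in the difference between training differences. Syt1 agreed in sign throughout. Stx12 disagreed in both comparisons with WNR, where its probe of higher mean gave -0.47 in KNR and -0.72 in WTR and its second probe 0.68 and 0.43, none of them called.

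**Figure D4:**
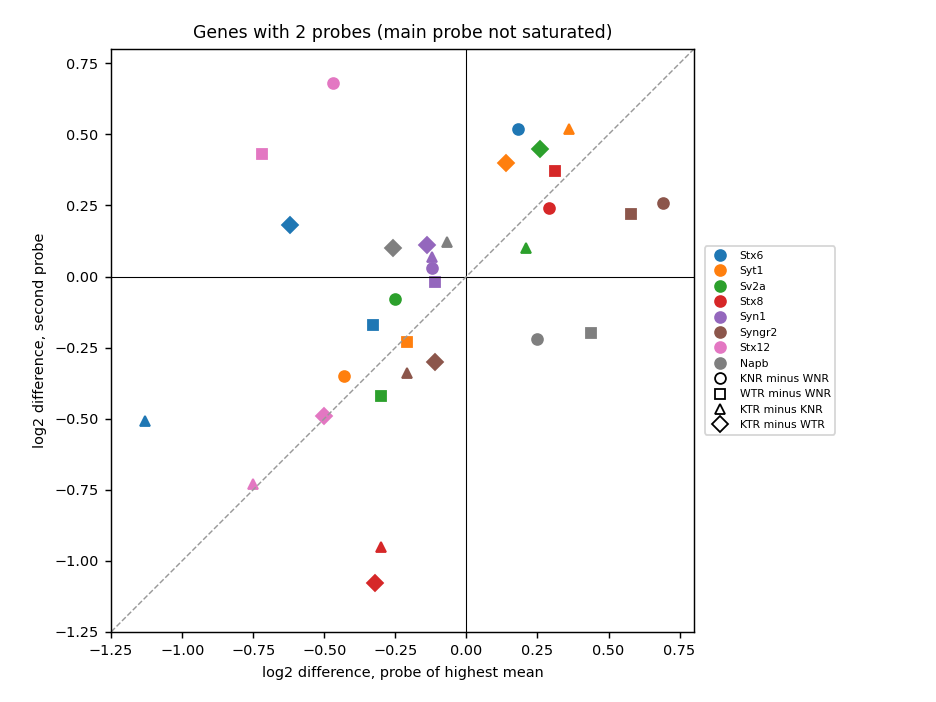
Log2 difference on the probe of highest mean (horizontal) and on the second probe (vertical) for 8 genes (colours, without Snap25) in 4 comparisons (symbols), with the dashed line of equality. Syt1 lies in the quadrants of equal sign in all 4, Napb in those of opposite sign, and Stx8 reaches -1.08 on its second probe in KTR minus WTR.

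Partner genes outside the naming rule were followed in the same fit, in 3 lists. Among 23 tested genes of priming and active zone partners, 2 were lower in KNR than in WNR and none higher, where 8.08% of all genes tested were called. They were Erc2, a scaffold of the active zone (-0.75, adjusted p = 0.019), and Napg, a relative of Napa (-0.58, adjusted p = 0.031). Napg was also the gene called in WTR against WNR (-0.52, adjusted p = 0.039), where 6.67% of all genes were. In KTR against KNR, where 15.4% of all genes tested were called, 1 was higher, the Rab3 effector Rph3a (0.64, adjusted p = 0.05 after rounding), and 4 were lower, of which Ppfia2, a liprin of the active zone, fell by 0.80 (adjusted p = 0.044). Erc2 (0.67, adjusted p = 0.042) and Napg (0.75, adjusted p = 0.042) were called in the difference between training differences, where 5.16% of all genes were. The list's medians were between -0.10 and 0.01.

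Among 23 tested genes of vesicle transporters, the proton pump and other vesicle proteins, 2 were higher and 2 lower in KNR, where 4.4% of all genes tested were called higher and 3.68% lower. Slc17a7, the vesicular glutamate transporter VGLUT1 and also 1 of the excitatory neuron markers, read 3843 and 4359 in WNR, 6641 and 7443 in WTR, 7056 and 6895 in KNR and 5495 and 5698 in KTR. WNR was lowest, KTR next, and WTR and KNR overlapped, with differences of 0.77 in KNR (adjusted p = 0.023), 0.78 in WTR (adjusted p = 0.028) and -1.10 for the difference between training differences (adjusted p = 0.032). Scamp1, a carrier membrane protein, was lower in KNR and in WTR by -0.59 each (adjusted p = 0.032 and 0.034), and it was 1 of 2 lower genes in WTR, where 3.32% of all genes were called lower. In KTR against KNR 2 were higher and 2 lower, where 6.35% and 9.07% of all genes were, including the pump subunit gene Atp6v1d (0.55, adjusted p = 0.024) and the SV2-related gene Svop (-0.53, adjusted p = 0.027).

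Among 24 tested endocytosis genes, against the same shares of all genes, 1 was called in KNR against WNR, the adaptor subunit Ap2s1 (0.62, adjusted p = 0.028), which also gave the only call in the difference between training differences (-0.71, adjusted p = 0.048). In KTR against KNR the fission protein gene Dnm1 was higher (0.47, adjusted p = 0.043) and 3 were lower, with the clathrin light chain gene Clta at -1.09 (adjusted p = 0.036). Limma called 0 of the 24 in WTR against WNR, with 7 at an unadjusted p under 0.05. In KTR against WTR it called 0 of each of the 3 lists, with 5, 5 and 7 at an unadjusted p under 0.05 in the order given. SAM and the pairwise limma fit called 0 of these lists in all 4 comparisons.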

How the data were processed

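Total RNA of right hippocampus, pooled from 3 mice per group, was amplified, labelled with Cy5 and hybridized to 8 one-colour arrays, which Phalanx Biotech scanned and read with GenePix. The deposited intensity values are linear and were quantile normalized by the authors. A floor of 100 before normalization is stated in the methods, yet 5.76% to 5.9% of the deposited values on each array were below 100, and background correction and spot filters are not given in the sources used here. When each array's values were sorted, equal ranks differed between arrays by a median of 0.178% and a maximum of 13.7%. The table lists 29922 probes, 13539 of which hold no value on any array. Of the 16383 with values, 13072 carried 1 gene symbol and 3311 none. The probe annotation is old, and 2101 of its symbols, none among the 73 genes, were updated to the RefSeq gene table of GRCm38.p6. Stxbp3a was kept as annotated.

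Values were raised to a floor of 100 and taken to log2. Probes above 100 on at least 2 of 8 arrays (16204) entered limma (version 3.58.1, R 4.3.3) with 1 mean per group on all 8 arrays (residual degrees of freedom 4, prior 3.03). All 4 groups thus share 1 estimate of the spread, and p-values were adjusted by Benjamini-Hochberg over all probes tested at a threshold of 0.05. The methods' test, SAM with q under 0.01 and a fold change over 2, and a pairwise limma fit were run as alternatives, together with other floors, filters, priors, a replicate block (also with crossed numbers, chosen after the data were seen), the mean over a gene's probes and each array left out. SAM on 2 against 2 arrays has 6 orders of the labels. The members, the partner lists, the roles and the choice of the joint fit were made with earlier results of these data known. Named genes were every member called, the main genes of neuronal release whatever their values, the 2 members of largest difference in each direction, and at most 2 called genes per list and comparison. With 2 arrays per group, the number of arrays limits the precision. Promoter windows are the bases before the start in the RefSeq table, and 57 of 73 members matched.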

Additional observations from a re-analysis of the deposited data

Results flagged for a closer look

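The training difference in the knockout departed from that in wild type, by the limma test of the difference itself, for 5 of the 73 genes. The values on the log2 scale were -1.44 for Cplx2 (adjusted p = 0.032), -0.79 for Syngr2 (adjusted p = 0.048), 0.82 for Sv2b (adjusted p = 0.041), 0.85 for Stxbp2 (adjusted p = 0.045) and 0.78 for Rab39b (adjusted p = 0.041). With single arrays left out in turn, the Cplx2 call remained without KTR array 1 alone and the other 4 calls in no case. Leaving out an array leaves a single array in its group, and calls over all probes fell as well. Groups of 2 arrays were not tested for single arrays that stand apart.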

How the results depend on the processing

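The 32 calls of a member in a comparison kept their sign in every alternative run, and 14 of them stayed called without at least 1 of the arrays, 0 without each array in turn. Counts of called members below are in the order KNR against WNR, WTR against WNR, KTR against KNR and the difference between training differences, where the values reported are 9, 8, 10 and 5. With single arrays left out they ranged from 0 to 5, stayed at 0, and ranged from 0 to 6 and from 0 to 1, and KTR against WTR stayed at 0. Fewer arrays leave fewer degrees of freedom, and over all probes the calls in KNR against WNR fell from 1300 to between 1 and 782. Without KNR array 1 and KTR array 2 all 4 counts were 0, and no probe of the table was called in any comparison. A variance prior with a trend gave 15, 12, 14 and 14. The pairwise limma fit gave 0, 0 and 0 for the first 3 and SAM 0, 0 and 1 (Stx6). SAM asks for a fold change over 2, which no member reached in WTR against WNR. The cause of the change with the prior was not tested. With the mean over a gene's probes, 1 member, Stx8, was called in KTR against WTR (-0.70, adjusted p = 0.041). No other scaling or floor moved a count of members by over 1.5 times.

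The labels do not say that the replicate numbers pair the arrays. The deviations of same-numbered arrays correlated at 0.27 between WNR and WTR and 0.44 between KNR and KTR, and at -0.24 to -0.38 across genotypes. With the replicate block the counts were 0, 0, 6 and 0, with 0 in KTR against WTR. A block with the numbers crossed in the knockout, chosen after these correlations were seen, gave 15, 13, 23 and 16, with 3 in KTR against WTR. The median over the members moved by more than the spread of array medians (SD 0.03) in a few settings. For the difference between training differences it was 0.13 as reported, 0.20 with a floor of 32, 0.19 with the mean over probes and 0.12 to 0.21 without single arrays or without KNR array 1 and KTR array 2. Without single arrays it ranged from -0.06 to 0.05 in KNR against WNR, down to -0.07 in WTR against WNR and from 0.06 to 0.12 in KTR against WTR, the last also 0.06 without KNR array 1 and KTR array 2.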
